A study of Homo sapiens with 4 samples.

Results

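The distal arm of chromosome 8 was examined in 2 HCT116 clones in which the long non-coding RNA N-BLR was silenced. The region was defined as every array probe placed on chromosome 8 from 120 Mb to the end in build hg17, and it was picked on the measurements themselves, because the genes of its last window were shifted in clone #4-7. It holds 358 of the 41000 probes, under 275 of the 31302 names on the array. A gene was represented by its brightest probe among those that exceeded background clearly in 1 channel or both on each of the 4 arrays, which left 195 genes of the region and 21401 genes in all. Of the 80 names not kept, 78 had no probe that passed this filter, and 2 were represented by a brighter probe elsewhere in the genome. The brightest probe of 60 of the 80 was above background in no channel of any array. HAS2, ENPP2, TNFRSF11B, COLEC10 and CCN4, which encode secreted proteins or make matrix sugars, were among the genes not kept. Of the genes kept, 79 lie between 120 and 140 Mb, or 3.95 per Mb, and 116 lie from 140 Mb to the last probe, or 18.6 per Mb.

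HCT116 cells are an established epithelial line from a colon carcinoma. Stable clones #3-1 and #4-7 carry shRNA vectors against N-BLR, and an HCT116 clone with the empty vector served as the control of both. Each clone was hybridised on 2 Agilent 2-colour arrays, called biological replicates in the labels, and every array also received RNA of the empty vector clone. Each shRNA group is 1 clonal line, so the 2 arrays of a clone measure its repeats and not the spread between independent clones. No probe was matched to N-BLR: 1 probe lies between those of the neighbouring genes POC1A and ALAS1, 12.4 kb from the latter, and the knockdown was not read here. Of 7 colon epithelial markers on the array, 6 were well above background on all arrays (EPCAM, KRT8, KRT18, KRT19, KRT20 and CDX2, but not VIL1). Of 6 markers of other cells, CD3E and COL1A1 were above background and PTPRC, PECAM1, COL3A1 and LUM were not.

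The labels put the shRNA clone in Cy5 and the empty vector in Cy3 on all 4 arrays, without a dye swap. Values are therefore given as the log2 ratio of Cy5 over Cy3, and a gene is called higher or lower in Cy5. The direction of the labels is opposite to the one the study describes for CDH1 and VIM: CDH1 was at -2.60 in clone #3-1 and -1.35 in clone #4-7 as Cy5 over Cy3, and VIM was at 4.45 and 2.38 by the brighter of its probes. If Cy3 held the shRNA clone, every sign below would turn. The spread of the single channels also went against the labels, since the channel labelled as the clone differed little between clones. After normalization, the difference between the mean Cy5 levels of the 2 clones had an SD of 0.13 over all 21401 genes and 0.10 over the 195 genes of the region. The same SD in Cy3, which is labelled as the shared control, was 0.47 over all genes and 0.51 over the region. Between arrays of the same clone the SD over the region was 0.08 to 0.10 in both channels. Before loess normalization the Cy5 scan of clone #4-7 replicate 2 stood apart, with an SD of 0.49 from replicate 1 over all genes, against 0.09 in Cy3. No array was left out for this, and whether the dyes were exchanged was not tested.

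The distal long arm of chromosome 8 carries MYC, the transcription factor that drives growth and ribosome production, and it is one of the segments most often gained in colorectal cancer. HCT116 itself is known to carry an additional piece of this arm on a rearranged chromosome. Toward the end of the arm genes are dense, with a cluster of LY6 genes for small surface proteins anchored by a lipid, a cluster of zinc finger transcription factors, and many genes of metabolism and translation. Genes on a chromosome segment that is gained or lost tend to shift together in expression.

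As a whole, the region's genes were centred slightly below 0 in clone #4-7, on which it was chosen, and near 0 in clone #3-1. In clone #3-1 the median log2 ratio of the 195 genes was -0.02 (-0.02 on array 1 and -0.03 on array 2), beside 0.02 over all genes. In clone #4-7 it was -0.10 (-0.11 and -0.13), again beside 0.02 over all genes. The 116 genes from 140 Mb to the end had medians of -0.02 (-0.02 and -0.03) in clone #3-1 and -0.12 (-0.12 and -0.13) in clone #4-7. In RNA from whole cultures, fewer cells that express a gene and less RNA per cell cannot be told apart. Both arrays of clone #4-7 lay below both of clone #3-1 for this window. Because the window was selected on clone #4-7, its value there is a description. The share of these 116 genes below 0 was 65.5% in clone #4-7, beside 47.8% of all genes, and 53.4% in clone #3-1, beside 47.6%. The lower values of clone #4-7 appeared at both ends of the distribution, with a 10th percentile of -0.67 beside -0.45 over all genes and a 90th percentile of 0.22 beside 0.42. In clone #3-1 the 10th percentile was -0.67 beside -0.47, and the 90th percentile was 0.45 beside 0.45.

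Set among all 295 windows of 10 Mb with at least 10 genes, the last window of chromosome 8 ranked 7th from the lowest in clone #4-7 and 72nd in clone #3-1. The middle 90% of windows ran from -0.09 to 0.11 in clone #4-7 and from -0.08 to 0.13 in clone #3-1. The window from 120 to 130 Mb, which was not the one that drew attention, had medians of -0.07 in clone #3-1 (rank 23) and -0.09 in clone #4-7 (rank 16). The window from 130 to 140 Mb was at 0.04 and 0.02. The window just before the region, from 110 to 120 Mb with 20 genes, was at -0.21 in clone #3-1 and 0.02 in clone #4-7. The value of clone #3-1 was the lowest median of all 295 windows, but this window was uneven. In that clone its 7 genes from 110 to 115 Mb had a median of 0.43, and its 13 genes from 115 to 120 Mb one of -0.22. The opposite end of the chromosome was also low, with medians from 0 to 10 Mb of -0.19 in clone #3-1 (rank 3) and -0.135 in clone #4-7 (rank 5). From 10 to 20 Mb the medians were -0.08 (rank 15) and -0.11 (rank 8).

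**Figure D1:**
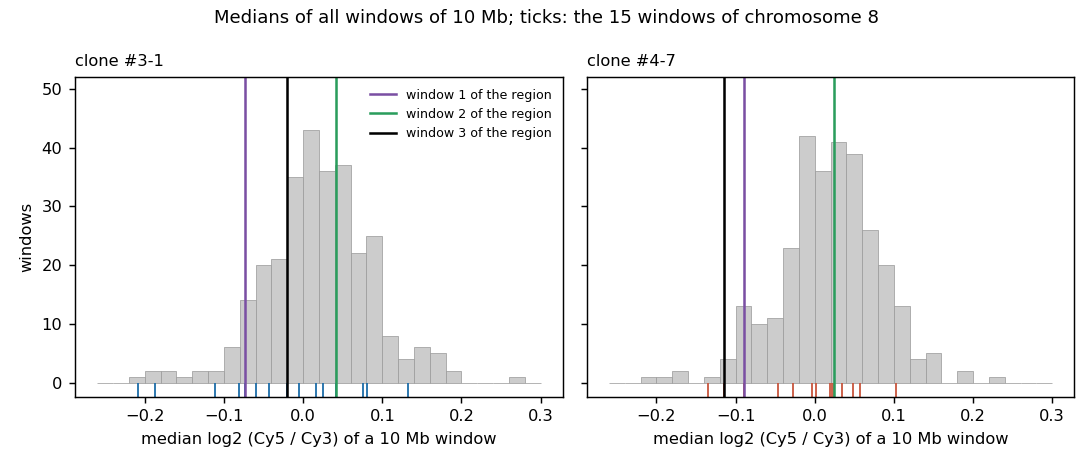
Histogram of the median log2 ratio (Cy5 over Cy3, x axis) of all 295 windows of 10 Mb with at least 10 genes, with the number of windows on the y axis, for clone #3-1 (left) and clone #4-7 (right). Coloured lines mark the 3 windows of the region and ticks under the bars mark all 15 windows of chromosome 8; the last window (black) lies at -0.02 in clone #3-1 and at -0.12 in clone #4-7, where it was the one that chose the region.

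Along the region the medians were uneven. In tiles of 5 Mb, the first (120 to 125 Mb, 27 genes) had a median that rounds to 0 in both clones. The lowest tile was the next one, from 125 to 130 Mb, with 25 genes and medians of -0.16 in clone #3-1 and -0.35 in clone #4-7. It holds TRIB1, LRATD2 and MYC. The tile from 130 to 135 Mb (22 genes) was at -0.04 and -0.09, and that from 135 to 140 Mb, with only 5 genes, was at 0.13 and 0.10. The 2 last tiles were at -0.04 and -0.14 (140 to 145 Mb, 64 genes) and at 0.00 and -0.10 (from 145 Mb, 52 genes). The probes of the 2 last tiles were also richer in G+C, with a median of 54.2% and 55%, against 40% to 43.3% in the other tiles of the region.

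The running median over 11 consecutive genes followed the same course. In clone #4-7 its lowest point in the region was -0.70, 7.16 Mb from the start of the region and between TRIB1 and LRATD2, and its highest was 0.21 at ATAD2. In the last window of that clone it ran between -0.42 at NAPRT and 0.155 at ZNF250. In clone #3-1 it had 2 low points, -0.51 at LRATD2 and -0.50 at SLC45A4 in the last window, and its highest point of 0.24 lay at ZNF250. Over the rest of chromosome 8 the lowest points were -0.56 in clone #3-1 and -0.52 in clone #4-7, and the highest were 0.50 and 0.29. From one gene to its neighbour the ratio changed sign at 79 of 194 steps in clone #4-7 and at 93 of 194 in clone #3-1. The longest run of genes below 0 was 15 in clone #4-7, ending at THEM6, and 11 in clone #3-1, starting at TRIB1. From 140 Mb to the end, 85.6% of the running medians over 11 genes were below 0 in clone #4-7, beside 51.2% on the rest of the chromosome, and 66.7% in clone #3-1, beside 46.6%. Over 21 genes, where neighbouring medians share most of their genes, the shares were 97.2% in clone #4-7, beside 53.2%, and 76.4% in clone #3-1, beside 48.1%. In this stretch of clone #4-7 the medians over 21 genes ran from -0.225 at GPR20 to 0.07 at ZNF34. Because the last window was chosen on clone #4-7, the shares of that clone restate the choice.

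**Figure D2:**
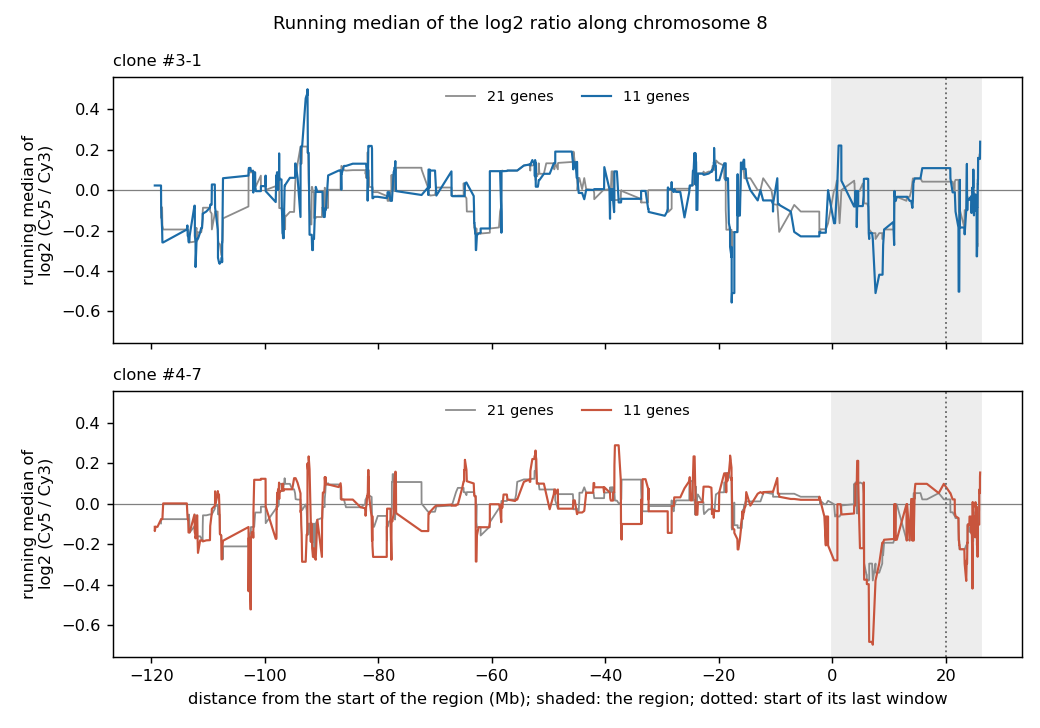
Running median of the log2 ratio (Cy5 over Cy3, y axis) over 11 genes (coloured) and 21 genes (grey) along chromosome 8, plotted against the distance in Mb from the start of the region (x axis), for each clone. The region is shaded and the dotted line marks the start of its last window; the deepest point of the region lies 7.16 Mb from its start in clone #4-7 (-0.70), outside the last window.

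At the limits of the region, the last kept names before 120 Mb were AV724325, at -0.34 in clone #3-1 and -0.52 in clone #4-7, and THC2325431, at -0.39 and -0.46. Just inside it, the first probe belongs to TNFRSF11B and was not kept, and the first gene kept was MAL2, at -4.18 and -2.28, followed by CCN3, at 0.89 and -0.61. At 140 Mb the neighbours were a probe without a gene name, at 0.13 and 0.22, and TRAPPC9, at -0.11 and 0.02.

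Single genes differed from 0 in both directions. In clone #3-1, 39 of the 195 genes were higher in Cy5 at limma's unadjusted p under 0.001, or 20% of them, while 23.5% of all genes tested were called in that direction. Lower in Cy5 were 61 genes, or 31.3%, where the share over all genes was again 23.5%. On the rest of chromosome 8, 20.4% of the genes were higher and 26% lower in clone #3-1. For clone #4-7 the counts were 32 higher and 72 lower, beside 22.8% and 21.8% of all genes; these counts restate the choice of the region and are given for completeness. Between the clones 78 of the 195 genes, or 40%, were called different at the same threshold. The share was 32.8% over all genes and 36.1% on the rest of chromosome 8. This count of 78 too rests on clone #4-7. Of the genes called in clone #3-1, 2 were at least 2-fold higher in Cy5 and 10 at least 2-fold lower, which is 1.03% and 5.13% of the region, beside 1.26% and 2.04% of all genes. The 2 genes were DSCC1 and MTBP. In the last window, 21 of the 116 genes were higher and 36 lower in clone #3-1. In the rest of the region 18 of 79 were higher and 25 lower. Both clones share the control RNA, so their values are set side by side without a count of genes they have in common. P-values rest only on the spread between repeat arrays of a clone. In the fit this spread was pooled over both clones and drawn toward a value common to all probes. An array of one clone therefore also affects the calls of the other. The spread of the control is not in the p-values, since it is 1 clone.

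**Figure D3:**
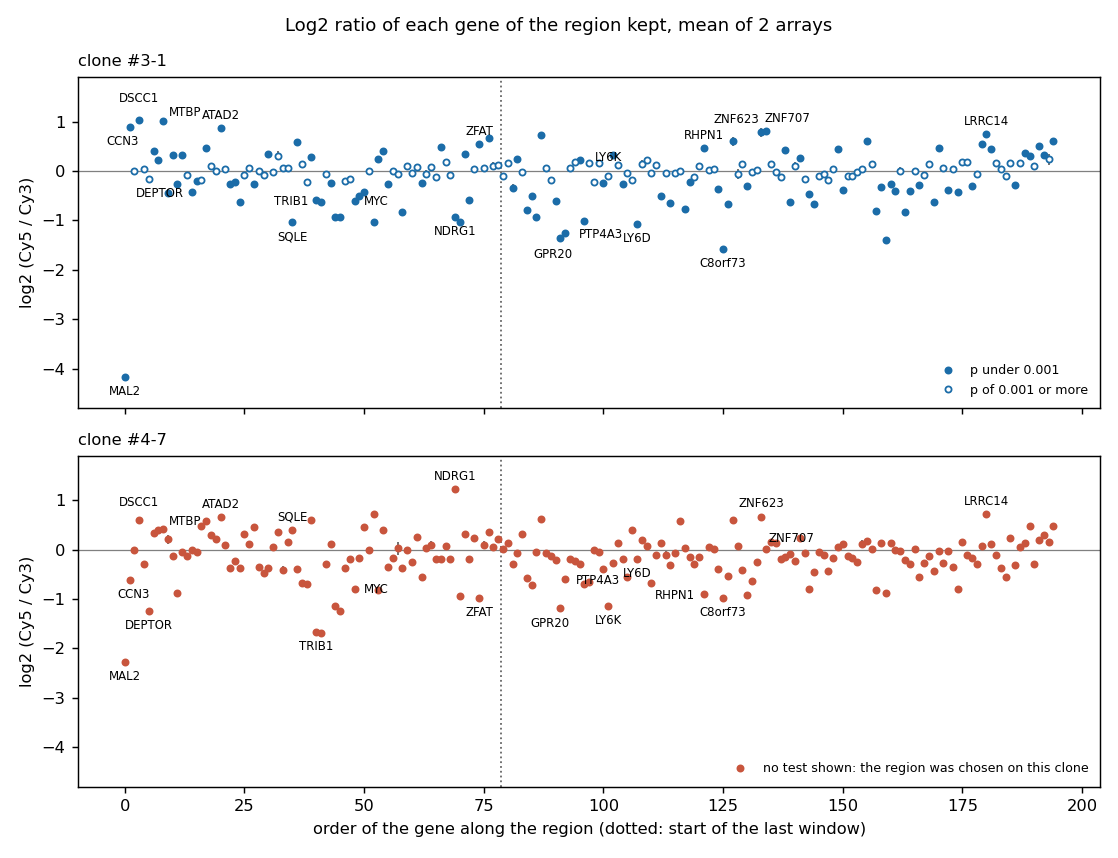
Log2 ratio (Cy5 over Cy3, y axis) of the 195 genes of the region in their order along the chromosome (x axis), as the mean of 2 arrays (points) with the range of the 2 arrays (vertical lines, mostly hidden by the points). In clone #3-1 filled points mark p under 0.001 (39 genes above and 61 below 0); no test is shown for clone #4-7, and MAL2 is the lowest gene in both clones.

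The gene with the largest ratio was the first one kept, MAL2, a membrane protein that carries cargo to the apical surface of epithelial cells. Its probe lies at chr8:120326738-120326797. MAL2 was at -4.21 and -4.15 on the arrays of clone #3-1 and at -2.28 on both arrays of clone #4-7. The mean in clone #3-1 was -4.18 (SE 0.03, limma adjusted p = 3.9e-06), an 18.1-fold difference between the channels. Its Cy5 level was nearly the same in both clones, 9.28 and 9.34 on the log2 scale, whereas its Cy3 level was 13.5 on the arrays of clone #3-1 and 11.6 on those of clone #4-7. The 2 clones thus stood apart in the channel labelled as the control.

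Genes of the region were also read in 10 lists by function or place. The lists were written with earlier results of these data known, so their counts are descriptions. Other genes of these functions elsewhere in the genome were not compared. Genes of DNA replication and repair were together on the high side of Cy5 in clone #3-1. All 7 members kept were called higher there, beside 23.5% of all genes, with a median of 0.56 beside 0.02 over all genes. In clone #4-7, 4 of the 7 were called higher, beside 22.8% of all genes, with a median of 0.42 beside 0.02. With a normexp offset of 0 or plain subtraction, 5 of the 7 were called higher in clone #3-1. The count was 6 with Feature Extraction signals, the deposited ratios or a replicate block. Leaving out any 1 array also lowered it, while the median in clone #3-1 stayed between 0.548 and 0.566. DSCC1, part of the complex that loads the PCNA sliding clamp onto DNA, was at 1.04 and 1.02 in clone #3-1 (mean 1.03, SE 0.03, limma adjusted p = 1.9e-05) and at 0.60 on both arrays of clone #4-7. MTBP, a partner of Treslin in the firing of replication origins, was at 1.00 and 1.01 (mean 1.00, SE 0.03, adjusted p = 2e-05), and at 0.41 and 0.43 in clone #4-7. ATAD2, a chromatin reader and coactivator that is produced in proliferating cells, was at 0.87 on both arrays of clone #3-1 (adjusted p = 2.5e-05) and at 0.66 and 0.64 in clone #4-7. A dimmer probe of MTBP gave 0.15 and 0.30 for the 2 clones, and a dimmer probe of ATAD2 gave 0.32 and 0.14. The helicase RECQL4 was at 0.56 in clone #3-1 (adjusted p = 9e-05) and 0.07 in clone #4-7, and TONSL, which repairs stalled forks, was at 0.46 (adjusted p = 0.00014) and -0.02. A second probe of TONSL gave 0.22 and 0.03 and was not called. NSMCE2, a SUMO ligase of the repair complex with SMC proteins, was lower in clone #3-1 (0.27) than in clone #4-7 (0.61). CHRAC1, a histone-fold protein, was at 0.24 and -0.07. The members lie in several places of the region, from DSCC1 near its start to RECQL4 and TONSL near its end.

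The MYC neighbourhood, with 14 of its 16 members kept, ranged from -1.04 to 0.58 in clone #3-1 and from -1.66 to 0.61 in clone #4-7. In clone #3-1, 4 of its members were called higher, 5 lower and 5 in neither direction, with a median of 0.03, beside 23.5% of all genes called in each direction. With a normexp offset of 0 the first count was 1 and the second 4. In clone #4-7, which chose the region, the median was -0.36, beside 0.02 over all genes. There, 4 were called higher and 8 lower, beside 22.8% and 21.8% of all genes. Without clone #4-7 replicate 2 these counts were 1 and 5. MYC itself, read at chr8:128822450-128822509, was at -0.60 and -0.62 in clone #3-1 (mean -0.61, SE 0.03, limma adjusted p = 5.7e-05) and at -0.79 and -0.80 in clone #4-7. All 4 arrays lay below 0. A pair of much dimmer MYC probes gave 0.19 and -0.28 in clone #3-1 and -0.09 and -0.26 in clone #4-7.

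TRIB1, a pseudokinase that directs proteins to degradation, was at -0.57 and -0.59 in clone #3-1 (mean -0.58, SE 0.03, adjusted p = 8e-05) and at -1.64 and -1.685 in clone #4-7. Its second probe gave -0.88 and -1.92 for the 2 clones. A transcript listed as BF475893, whose probe starts 2 bases from that of TRIB1 on the opposite strand, was at -0.62 and -1.68, so this locus was counted under 2 names. LRATD2 was low in both clones, at -0.94 and -0.93 in clone #3-1 (mean -0.94, SE 0.04, adjusted p = 4.2e-05) and at -1.09 and -1.204 in clone #4-7. The nearby transcript AW444553 was at -0.94 and -1.245. Its probe lies 7.6362 Mb from the start of the region and that of LRATD2 7.6341 Mb. Whether the 2 names are 1 gene was not tested. Of the 79 genes kept from 120 to 140 Mb, 43 matched a RefSeq symbol, as did 79 of the 116 from 140 Mb. Some loci may therefore be counted under several names.

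SQLE, the squalene epoxidase of cholesterol synthesis, lay on opposite sides of 0 in the 2 clones. Its ratios were -1.015 and -1.07 in clone #3-1 (mean -1.04, SE 0.03, adjusted p = 2.1e-05) and 0.40 and 0.42 in clone #4-7. WASHC5, a subunit of the complex that shapes endosomes with actin, has its probe next to that of SQLE and showed the reverse, at 0.58 and 0.59 in clone #3-1 (adjusted p = 6.9e-05) and -0.41 and -0.38 in clone #4-7. RNF139, a ubiquitin ligase of the endoplasmic reticulum, likewise was at 0.35 in clone #3-1 (adjusted p = 0.00069) and -0.38 in clone #4-7. The members with ratios above 0 in both clones were NSMCE2, at 0.27 and 0.61, NDUFB9 of respiratory complex I, at 0.31 and 0.37, and CYRIB, an inhibitor of actin branching through Rac, at 0.40 and 0.39. A second, slightly dimmer NDUFB9 probe gave 0.47 in both clones and was called in each. The brightest NDUFB9 probe was called only in clone #4-7. EFR3A, which anchors a lipid kinase at the plasma membrane, was at -0.25 and -0.56. TYW2, an enzyme that modifies transfer RNA, was at 0.00 and -0.35, and MTSS1, a protein that bends membranes at actin structures, at 0.06 and -0.41. ASAP1 was at 0.09 and 0.00 and TATDN1 at -0.03 and 0.06. In clone #4-7 the median of the tile that holds MYC, -0.35, was the value of TYW2. RNF139, WASHC5 and MTSS1 lay below it, as did TRIB1, LRATD2, MYC and several unnamed transcripts, and 68% of the 25 genes were below 0.

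Of 13 genes for cell adhesion, polarity and the cytoskeleton, 3 were called higher and 7 lower in clone #3-1. The share over all genes was 23.5% in each direction, and the median of the list was -0.445. In clone #4-7, which chose the region, 1 was higher and 7 lower, beside 22.8% and 21.8% of all genes, with a median of -0.41. After MAL2, the largest ratio in clone #3-1 was that of PTP4A3, a phosphatase linked to metastasis, at -1.21 and -1.28 in clone #3-1 (mean -1.25, SE 0.03, limma adjusted p = 1.8e-05) and at -0.61 and -0.58 in clone #4-7. PTK2, the focal adhesion kinase, was at -0.79 and -0.77 (mean -0.78, SE 0.03, adjusted p = 3.2e-05) and at -0.57 on both arrays of clone #4-7. Its 3 probes spanned 0.11 in clone #3-1 and 0.17 in clone #4-7. The plakin family members PLEC and EPPK1 tie intermediate filaments to other structures. They were at -0.66 and -0.46 in clone #3-1 and at -0.44 and -0.79 in clone #4-7. A second PLEC probe gave -0.37 in clone #3-1 and -0.06 in clone #4-7, the latter without a call. A second EPPK1 probe gave -0.61 and -0.64. RHPN1 was at 0.46 in clone #3-1 and -0.90 in clone #4-7 by its brightest probe. Its 2 other probes gave -0.61 and -0.05 in clone #3-1, so the direction of RHPN1 there depended on the probe. Called higher beside RHPN1 were FAM83H, at 0.43, and ARHGAP39, at 0.45. A second probe of FAM83H gave 0.05 without a call. SCRIB, a scaffold of cell polarity, was at 0.10 and -0.23 and was called in neither clone.

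NDRG1, a differentiation and hypoxia response gene, showed the widest gap between the clones of any gene of the region. In clone #3-1 it was at -0.92 and -0.96 (mean -0.94, SE 0.03, adjusted p = 2.7e-05), and in clone #4-7 at 1.21 and 1.26. A second, dimmer probe gave -1.01 and 1.02. In Cy5 the level was 15.8 on the arrays of clone #3-1 and 15.6 on those of clone #4-7, while in Cy3 it was 16.7 and 14.4. ZFAT, a zinc finger regulator of immune cells and blood vessels, ran the other way, at 0.59 and 0.51 in clone #3-1 (mean 0.55, SE 0.03, adjusted p = 0.00014) and at -0.95 and -0.995 in clone #4-7. Its Cy5 level was 10.4 in both clones and its Cy3 level was 9.85 and 11.4. CCN3, a secreted matrix-associated regulator of growth, was at 0.89 on both arrays of clone #3-1 (SE 0.03, adjusted p = 2.3e-05) and at -0.61 and -0.62 in clone #4-7. Its second, dimmer probe gave 0.15 and -0.37. Of the 9 secreted and matrix proteins of the region on the array only CCN3, COL14A1 and TG were kept. COL14A1, a collagen that binds fibrils, was at 0.40 in clone #3-1 (adjusted p = 0.00066) and 0.33 in clone #4-7. Its second probe gave 0.07 and 0.21 without a call, and TG was at -0.09 and -0.195 without a call.

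In 76 of the 78 genes called different between the clones the mean Cy3 levels lay farther apart than the mean Cy5 levels. Over these 78 genes the median gap between the clones was 0.54 in Cy3 and 0.06 in Cy5. The largest gap was 2.36 in Cy3 and 0.66 in Cy5. The genes were selected for this difference, so the figures describe the channel in which it lay.

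**Figure D4:**
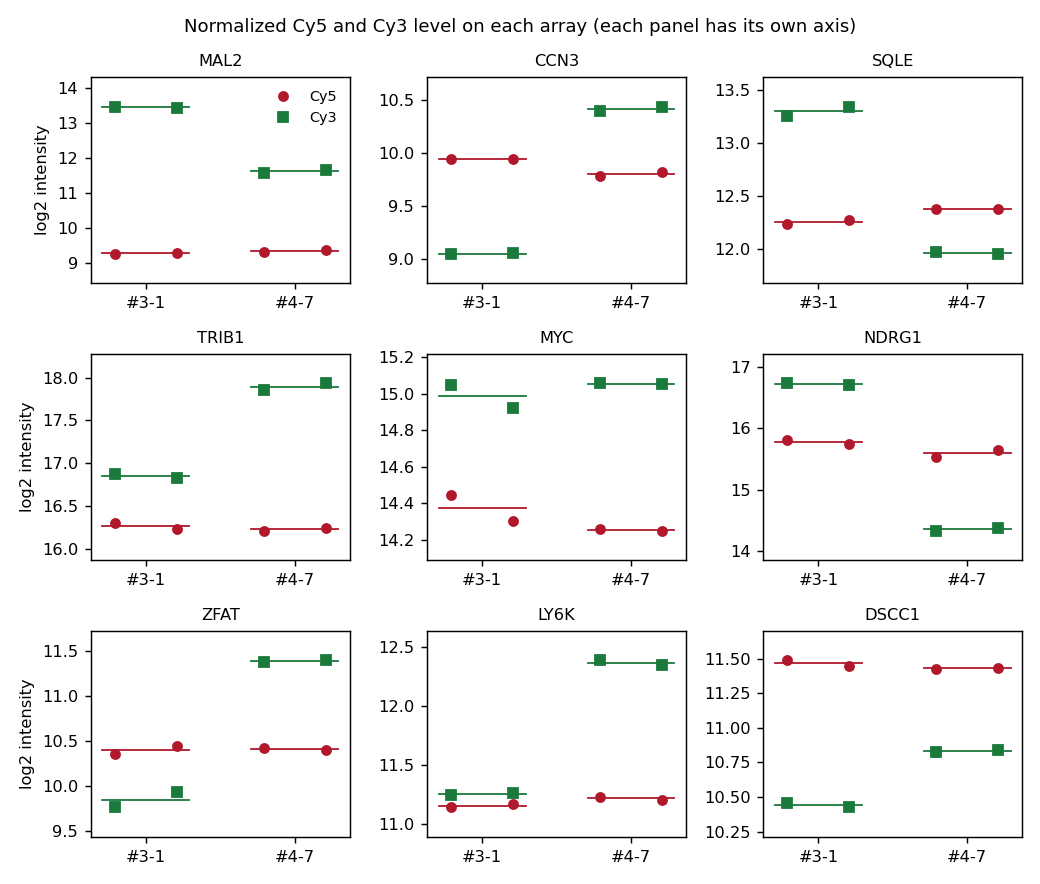
Normalized log2 intensity (y axis, a separate scale in each panel) of 9 genes of the region in Cy5 (circles) and Cy3 (squares) on the 2 arrays of clone #3-1 and the 2 arrays of clone #4-7 (x axis), with horizontal lines at the mean of the 2 arrays. For NDRG1 the Cy3 squares lie at 16.7 in clone #3-1 and 14.4 in clone #4-7, while the Cy5 circles lie at 15.8 and 15.6.

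DEPTOR, an inhibitor of the mTOR kinase that lies near the start of the region, was at -1.23 and -1.265 in clone #4-7. Its ratios in clone #3-1 were -0.14 and -0.19 (limma adjusted p = 0.0078), which did not pass the threshold of unadjusted p. An unnamed transcript, THC2383838, with its probe at chr8:130766948-130767007, was at -1.04 and -1.01 in clone #3-1 (adjusted p = 2e-05) and at 0.72 on both arrays of clone #4-7. DENND3, an activator of a small GTPase of vesicle traffic, was at -0.92 and -0.95 in clone #3-1 (mean -0.94, SE 0.03, adjusted p = 2.3e-05) and at -0.05 and -0.03 in clone #4-7.

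In the gene-dense end from 140 Mb, the lowest gene of clone #3-1 was C8orf73, at -1.57 and -1.59 (mean -1.58, SE 0.03, limma adjusted p = 1e-05), and at -0.97 on both arrays of clone #4-7. AX721087, a transcript without a gene symbol, was at -1.39 on both arrays of clone #3-1 (adjusted p = 1.3e-05) and at -0.90 and -0.86 in clone #4-7. GPR20, a receptor that signals through G proteins, was at -1.38 and -1.335 in clone #3-1 (mean -1.36, SE 0.03, adjusted p = 1.4e-05) and at -1.17 in clone #4-7. On the high side LRRC14, a leucine-rich repeat protein, was at 0.78 and 0.74 in clone #3-1 (adjusted p = 3.9e-05) and 0.70 and 0.72 in clone #4-7. Its second probe gave -0.19 and -0.45, and LRRC14 is therefore uncertain. C8orf33, the last gene of the region, was at 0.60 and 0.48. Its 2 other probes gave 0.15 and 0.11 in clone #3-1 and 0.05 each in clone #4-7, and neither was called.

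Members of the LY6 family, small surface proteins some of which mark stem cells or carcinoma cells, were called lower more often than higher. Of 9 kept, 4 were called lower and 0 higher in clone #3-1 (median -0.10), beside 23.5% of all genes in each direction. In clone #4-7, 4 were called lower and 0 higher (median -0.19), beside 21.8% and 22.8% of all genes. The members lie in the last window, which was chosen on clone #4-7, so the counts of that clone restate the choice. Leaving out clone #4-7 replicate 2 or either array of clone #3-1, a replicate block or another background correction left 2 members called lower in clone #3-1, and at an adjusted p under 0.05, 2 were higher and 5 lower. LY6D was at -1.09 and -1.06 in clone #3-1 (mean -1.07, SE 0.04, adjusted p = 3e-05) and at -0.25 and -0.14 in clone #4-7. LY6K was at -0.11 and -0.09 in clone #3-1, without a call (adjusted p = 0.031), and at -1.16 and -1.14 in clone #4-7. A second probe of LY6K gave -0.04 and -1.06. Another, dim one, placed on the strand opposite to these, gave 0.09 and 0.01. LY6E was at -0.05 in clone #3-1 (adjusted p = 0.19) and at -0.68 in clone #4-7. PSCA, the prostate stem cell antigen, was at -0.24 (adjusted p = 0.0011) and -0.38. Its other probes gave -0.12 and 0.04 in clone #3-1, neither called, and -0.999 and -0.18 in clone #4-7. The PSCA probe at -0.12 and -0.999 is placed on the strand opposite to the other PSCA probes, so it may read another transcript. GPIHBP1, which carries lipoprotein lipase across capillaries, was at -0.51 (adjusted p = 0.00015) and 0.13.

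Among the zinc finger genes listed for the end of the arm, many of which encode repressors with a KRAB domain, 12 of 13 were kept. ZFAT, described above, was not in this list. In clone #3-1, 3 were called higher and 2 lower, with a median of 0.08, and in clone #4-7, 2 higher and 3 lower, with a median of -0.05. These counts are near the 23.5% of all genes called in each direction of clone #3-1. In clone #4-7 the shares over all genes were 22.8% higher and 21.8% lower. Leaving out any 1 of the 4 arrays left 1 called lower in clone #3-1, and leaving out either array of clone #4-7 left 1 called lower there. ZNF707 was at 0.81 and 0.79 in clone #3-1 (mean 0.80, SE 0.03, adjusted p = 3e-05) and at 0.01 on both arrays of clone #4-7. ZNF623 was at 0.70 and 0.86 in clone #3-1 (mean 0.78, SE 0.05, adjusted p = 0.00013) and at 0.655 and 0.69 in clone #4-7. ZNF250 was at 0.295 (adjusted p = 0.00064) and 0.48. GLI4, named for its likeness to the GLI factors, was at -0.65 (adjusted p = 0.00012) and -0.30. ZNF696 was at -0.22 (adjusted p = 0.0018) and -0.14. ZNF34 was at -0.11 and -0.56, and ZNF16 at 0.10 and -0.29. The other 5 members, ZNF7, ZNF251, ZNF572, ZFP41 and ZC3H3, lay between -0.03 and 0.155 in clone #3-1 and between -0.10 and 0.165 in clone #4-7.

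Genes of the ribosome, translation and RNA processing were in 3 of 9 cases called higher and in 1 case lower in clone #3-1, beside 23.5% of all genes in each direction. The median was 0.05 in clone #3-1 and 0.23 in clone #4-7. The 3 higher calls depended on the processing: 1 was left without clone #3-1 replicate 1, without either array of clone #4-7 or with a replicate block, and 0 with a normexp offset of 0, plain subtraction, Feature Extraction signals or the deposited ratios. The lower call was lost without clone #3-1 replicate 1, with a normexp offset of 0 and with plain subtraction. EEF1D, a subunit of the factor that recharges elongation factor 1, was at 0.69 and 0.52 in clone #3-1 (mean 0.60, SE 0.05, adjusted p = 0.00029) and at 0.605 and 0.595 in clone #4-7. Its 7 probes ranged from -0.17 to 0.60 in clone #3-1 and from -0.03 to 0.60 in clone #4-7. MRPL13 of the mitochondrial ribosome was at 0.22 (adjusted p = 0.0018) and 0.40, and PUF60, a splicing factor, at 0.27 (adjusted p = 0.0028) and 0.23. RPL8, of the large ribosomal subunit, was at 0.16 and 0.24 and was called in neither clone. BOP1, which matures the large ribosomal subunit, was at -0.33 in clone #3-1 (adjusted p = 0.00057) and 0.13 in clone #4-7.

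The 12 genes of mitochondria and metabolism had medians of -0.15 and -0.14, with 1 called higher and 5 lower in clone #3-1, beside 23.5% of all genes in each direction. With a replicate block, 2 were called higher. The lower count was 4 with a normexp offset of 0, plain subtraction, Feature Extraction signals or the deposited ratios. At an adjusted p under 0.05, 3 were higher and 7 lower. In clone #4-7, which chose the region, 2 were called higher and 5 lower, beside 22.8% and 21.8% of all genes. Besides SQLE, NAPRT, which makes NAD from nicotinic acid, was lower, at -0.67 and -0.66 in clone #3-1 (mean -0.67, SE 0.03, adjusted p = 5.6e-05) and at -0.56 and -0.50 in clone #4-7. DGAT1, the last enzyme of triglyceride synthesis, was at -0.41 in clone #3-1 (adjusted p = 0.00022) and -0.01 in clone #4-7, and CYC1, of respiratory complex III, at -0.375 (adjusted p = 0.00028) and 0.12. PYCR3, an enzyme of proline synthesis, was at -0.01 in clone #3-1 (adjusted p = 0.79) and -0.625 in clone #4-7. GPAA1, which attaches lipid anchors to surface proteins, was the member called higher in clone #3-1, at 0.44 (adjusted p = 0.00021), and was at 0.05 in clone #4-7.

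Of 10 other transcription factors, 1 was called higher and 3 lower in clone #3-1, beside 23.5% of all genes in each direction, and the medians were 0.00 and -0.01. Leaving out any 1 of the 4 arrays left 1 of the 3 lower calls, as did a replicate block, a normexp offset of 0, plain subtraction and Feature Extraction signals. PHF20L1, a reader of methylated proteins, was at 0.49 in clone #3-1 (adjusted p = 0.00012) and -0.18 in clone #4-7. Its 3 other probes gave 0.06 to 0.11 in clone #3-1 and -0.05 to 0.12 in clone #4-7, and none was called. HSF1, the master regulator of heat shock genes, was at -0.265 (adjusted p = 0.0014) and 0.14, and ZHX2 was at -0.20 (adjusted p = 0.0025) and -0.05. Of 10 genes for protein turnover and vesicle traffic, 3 were called higher and 3 lower in clone #3-1, again beside 23.5% in each direction. These counts were 2 and 2 with a normexp offset of 0, plain subtraction or Feature Extraction signals. They were 3 and 6 at an adjusted p under 0.05. In clone #4-7, which chose the region, 1 was higher and 5 lower, beside 22.8% and 21.8% of all genes. The medians of the list were -0.10 in clone #3-1 and -0.21 in clone #4-7. VPS28, of the machinery that sorts ubiquitinated cargo, was at -0.63 (adjusted p = 0.00011) and -0.43, and FBXO32, a ubiquitin ligase of muscle wasting, was at -0.63 (adjusted p = 6.9e-05) and -0.38. FBXL6 was at -0.395 (adjusted p = 0.00053) and -0.28, and COMMD5 was at 0.37 (adjusted p = 0.00028) and 0.13. A second probe of COMMD5 gave 0.09 and -0.05 without a call.

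**Figure D5:**
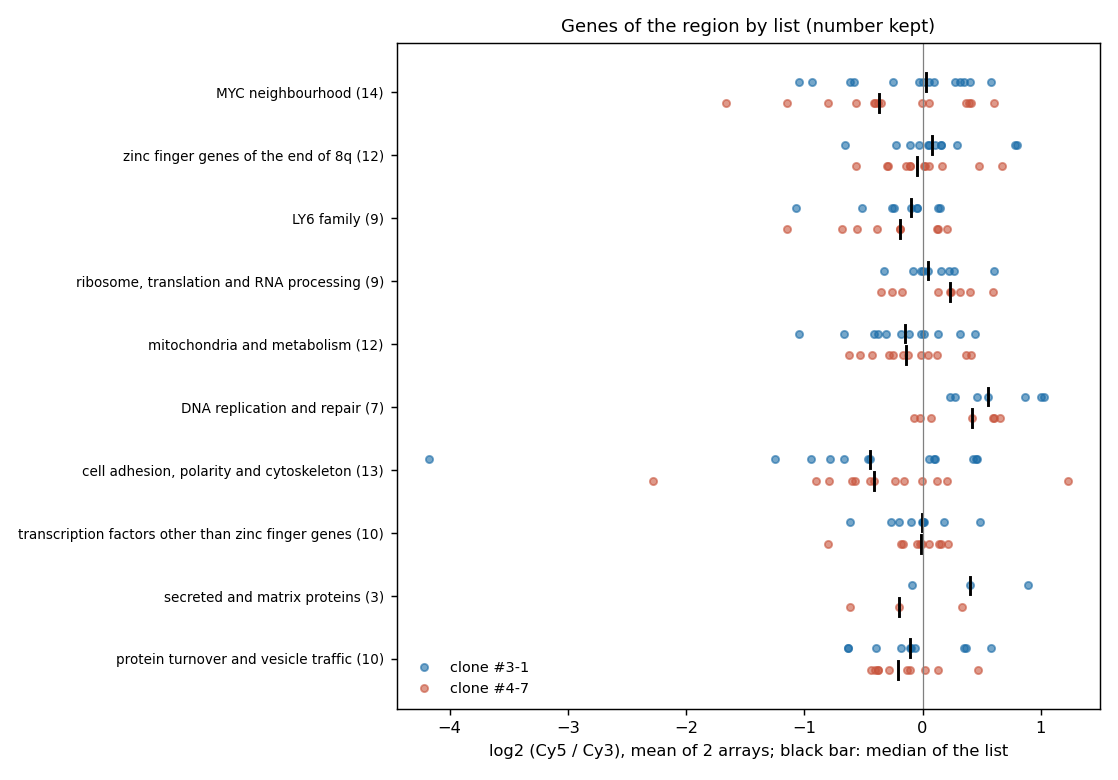
Log2 ratio (Cy5 over Cy3, x axis) of each kept gene of the region in 10 gene lists (y axis, number of genes in parentheses), with clone #3-1 in blue and clone #4-7 in red, and a black bar at the median of each list. The lists were written with earlier results of these data known. In clone #3-1 all 7 genes of DNA replication and repair lie above 0 (median 0.56), and MAL2 lies farthest to the left in both clones.

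Features of the probes were set beside the values of the last window. Over all genes, probes with at least 50% G+C had medians of -0.02 in both clones, and those with less had medians of 0.03 in both. In the last window the 74 genes with at least 50% G+C were at -0.065 in clone #3-1 and -0.18 in clone #4-7, and the 42 others at 0.105 and -0.07. With the trend on G+C removed from each array, the median of the window was 0.00 in clone #3-1 and -0.11 in clone #4-7. Genes brighter than the median gene of the array (70 in the window) were at -0.06 and -0.16, and the 46 dimmer ones at 0.03 and -0.08. The part of probe composition in these values was otherwise not tested.

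For 45 names of the region more than 1 probe passed the filter. In clone #3-1 the probes lay on the same side of 0 for 33 of them, with a median range of 0.19 between the probes of a name, and in clone #4-7 for 32, with a median range of 0.16. Calls in opposite directions occurred for LRRC14 and RHPN1 in clone #3-1 and for LRRC14 in clone #4-7. For 6 genes of the region, among them SNTB1 and GML, Cy3 was not well above background on either array of 1 or both clones, and their ratios there are bounds.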

How the data were processed

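RNA of 2 N-BLR shRNA clones of HCT116 and of an empty vector clone was measured on 4 Agilent 2-colour arrays, 2 per clone. The authors deposited mean spot and local background intensity in both channels, Agilent Feature Extraction processed intensity, the log10 ratio of Cy5 over Cy3, and a table of log10 ratios. The submitters' processing notes name Agilent Feature Extraction 8.5.1.1. Each array holds 43376 probe spots and 1639 control spots, and 68.5% to 72.6% of the probe spots were well above background in a channel. The labels describe lentiviral transduction and the study's methods transfection. As in the study's methods, limma was used (limma 3.58.1 in R 4.3.3), with background correction, normalization within arrays, quantiles between arrays, spots of a probe averaged and unadjusted p under 0.001 as threshold. Chosen here, since the methods do not name them, were normexp (offset 50), loess within arrays and no weight in the loess fit for 87 to 125 outlier spots per array. A model with a term per clone was fitted over all 41000 probes, with Benjamini-Hochberg adjusted p over all probes beside it. Symbols were matched to 23860 probes through RefSeq accessions, and 17140 probes keep the name given on the array. Coordinates are those of the files (hg17). The code was tested on simulated data.

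The members of the region and the gene lists were chosen with earlier results of these data known. The genes named were, by the rule used, list members with the largest ratios, the 5 genes per direction with the largest ratio in each clone and the largest difference between clones, the genes at the limits of the region, and MAL2, SQLE and MYC. FAM83H, ARHGAP39, SCRIB, PLEC, RECQL4, TONSL, CHRAC1, GPIHBP1, BOP1, DGAT1, CYC1, GPAA1, HSF1, ZHX2 and C8orf33 were named outside this rule after their values were seen. Alternatives were other background corrections, Feature Extraction signals, the deposited log10 ratios, other normalization between arrays, no filter, every probe, a G+C trend, a replicate block, an intensity trend, adjusted p, and leaving out each array. No sequence of the region is printed. A marker of other cells from the list is not reported here.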

Additional observations from a re-analysis of the deposited data

Results flagged for a closer look

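Within the region 78 of 195 genes were called different between the clones (clone #3-1 minus clone #4-7, limma p under 0.001). The share was 32.8% over all genes and 36.1% on the rest of chromosome 8. Of the 78 genes, 46 had the higher ratio in clone #3-1 and 32 in clone #4-7. Because clone #4-7 chose the region, the differences are given as values.

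The ratio of clone #3-1 was the higher one for ZFAT (difference 1.52), CCN3 (1.51), RHPN1 (1.36), DEPTOR (1.085), TRIB1 (1.08), BF475893 (1.06), LY6K (1.05), WASHC5 (0.98), ZNF707 (0.79), RNF139 (0.73), PHF20L1 (0.67), LY6E (0.63), PYCR3 (0.61), MTBP (0.585), MTSS1 (0.46), ZNF34 (0.46), DSCC1 (0.43), ZNF16 (0.39), TYW2 (0.35) and EPPK1 (0.33). The ratio of clone #3-1 was the lower one for NDRG1 (-2.175), MAL2 (-1.90), THC2383838 (-1.74), SQLE (-1.45), DENND3 (-0.89), LY6D (-0.88), PTP4A3 (-0.65), C8orf73 (-0.61), AX721087 (-0.51) and NSMCE2 (-0.33).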

How the results depend on the processing

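The 4 arrays limit precision to the spread between the 2 repeats of a clone, and the dyes were not swapped. No replicate numbers were shown to pair the arrays, since the deviations of replicate 1 from replicate 2 correlated at -0.018 across 28541 probes. With a replicate block, 35 genes were higher and 49 lower in clone #3-1, 29 higher and 61 lower in clone #4-7, and 66 differed between the clones. In the order higher and lower in clone #3-1, higher and lower in clone #4-7, and different between the clones, the counts of genes were 24, 39, 20, 47 and 45 with a normexp offset of 0 and 22, 36, 17, 39 and 32 with plain background subtraction. The deposited log10 ratios gave 25 genes higher in clone #3-1. At an adjusted p under 0.05, 62 genes were higher in clone #3-1, 51 higher in clone #4-7 and 125 different. Leaving out each array in turn gave 27 to 34, 41 to 51, 17 to 30, 40 to 69 and 39 to 60 genes. Among these, 17 higher, 40 lower and 39 different came without clone #4-7 replicate 2, and 20 genes were higher without clone #4-7 replicate 1.

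In clone #4-7 the median from 140 Mb to the end lay between -0.175 and -0.063 under all alternatives. The values were -0.142 for a normexp offset of 0, -0.163 for plain subtraction, -0.169 with Feature Extraction signals, -0.175 with the deposited ratios, -0.15 without normalization between arrays and with Aquantile, -0.063 without the filter, -0.09 with every probe and -0.135 with matched names alone, a setting chosen after seeing the data. For the whole region the same settings gave -0.139, -0.144, -0.165, -0.159, -0.123, -0.028, -0.067 and -0.065. In clone #3-1 the last window gave -0.03, -0.033, -0.035, -0.03, -0.039, 0.001, -0.043 and -0.011, and 0.002 with the G+C trend removed. For the whole region in clone #3-1 the median was -0.04 without normalization between arrays and with Aquantile, 0.002 without the filter and 0.001 with matched names. Leaving out each array gave -0.13 to -0.112 (last window) and -0.123 to -0.105 (region) in clone #4-7, and -0.034 to -0.02 and -0.033 to -0.019 in clone #3-1. The lowest running median was -0.606 over 7 genes, -0.28 over 21 genes and -0.633 with the deposited log ratios in clone #3-1, and -1.147, -0.38 and -0.858 in clone #4-7. Among 65 named genes, each read by its brightest probe, 0 called ratios changed sign under an alternative. Of 1820 comparisons, 150 lost and 33 gained the call. The settings with every probe, adjusted p and matched names were not among these comparisons, nor were the genes named outside the rule. Between probes of the same gene, calls in opposite directions occurred for LRRC14 and RHPN1, as given above. The causes of these changes were not tested.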
